A study of Homo sapiens with 9 samples.

Results

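MYCN lies in a stretch of chromosome 2, from 15936335 to 16421448 (GRCh38, 485.1 kb), in which the median ATAC-seq count per kb stood far above that of the rest of the chromosome. The stretch was taken as every row of the deposited count table whose centre falls between these positions. That gave 130 of the 148797 rows, each row being 1 region of that table. All 130 passed the filter on low counts and were tested. Each row is described by its count per kb divided by the median count per kb of the 130 rows in the same library. This quotient is called the relative level below. A change in the number of copies of the whole stretch cancels out of it.

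The cells were SK-N-BE(2)c, an established neuroblastoma line known for MYCN amplification, and all results come from this 1 line. All cultures were transfected with 100 nM antisense oligonucleotide and collected after 48 h. ASO2 and ASO10 both target NESPR, a long non-coding RNA, while NCA served as the negative control. There were 3 libraries in each group, and no untransfected cells were among them. The labels do not say whether replicates were separate cultures, so p-values speak only for these libraries. Those from edgeR use a spread that borrows from all tested rows, not that of the single row alone. Total counts ran from 7293565 to 10948569 per library. Rows lay near 8 of 9 genes chosen as markers of adrenergic neuroblastoma, with a summed level of 185 to 214 CPM (counts scaled to library size) in NCA. TH was the one without a row. Rows also lay near 4 of 6 markers of mesenchymal neuroblastoma, with sums of 63.6 to 74.2 CPM in NCA, 56.7 to 66.3 in ASO2 and 63.3 to 70.0 in ASO10. Of 4 blood markers only SPI1 had a row, with a mean of 5.1 CPM in NCA, 3.4 in ASO2 and 3.1 in ASO10. Of 3 epithelial markers only KRT8 had a row (8.5, 9.6 and 9.3 CPM). Near the fibroblast markers (2 of 3 genes with a row) the sums were 15.9 to 20.3 CPM in NCA, 22 to 25.4 in ASO2 and 16.1 to 18.2 in ASO10, and the part of such differences in the results was not tested.

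MYCN encodes a basic helix-loop-helix transcription factor that pairs with MAX, binds E-box sequences and drives genes of growth and ribosome production. Its amplification, in which a piece of the short arm of chromosome 2 is multiplied as extrachromosomal circles or repeats within a chromosome, marks aggressive neuroblastoma. The amplified piece often holds distant enhancers along with the gene, and in adrenergic cells these are bound by factors such as HAND2 and GATA3. In ATAC-seq the transposase Tn5 cuts open chromatin, so a region gains counts both from being more open and from having more copies. In such bulk libraries these contributions cannot be told apart for the stretch as a whole.

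Annotated genes in the stretch were few. Besides MYCN (15940550 to 15947004) they were MYCNOS, the antisense transcript that overlaps the MYCN start (15936265 to 15942433), the long non-coding RNA GACAT3 (16050427 to 16085689), and the uncharacterised non-coding loci LOC105373443 (16201546 to 16204954), LOC124908049 (16202310 to 16204226) and LOC107985855 (16354992 to 16432999). RN7SL104P and LOC124900535 are pseudogenes. The 250 bases upstream of the annotated starts of MYCN, LOC124908049 and GACAT3 are shown because each lies inside a row described below: the MYCN start row, the highest row of the stretch, and an ordinary row. They are from RefSeq (GRCh38.p14), all on the plus strand. Capitals mark matches, on either strand, to GGGCGG (the GC box), CANNTG (the E-box) or GATAA (the core of GATA sites).
MYCN, chr2:15940300-15940549: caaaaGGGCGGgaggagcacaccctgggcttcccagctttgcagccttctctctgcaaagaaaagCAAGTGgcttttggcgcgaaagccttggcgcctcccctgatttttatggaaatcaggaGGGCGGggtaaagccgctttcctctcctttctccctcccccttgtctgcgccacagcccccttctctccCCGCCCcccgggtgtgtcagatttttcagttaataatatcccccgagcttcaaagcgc
LOC124908049, chr2:16202060-16202309: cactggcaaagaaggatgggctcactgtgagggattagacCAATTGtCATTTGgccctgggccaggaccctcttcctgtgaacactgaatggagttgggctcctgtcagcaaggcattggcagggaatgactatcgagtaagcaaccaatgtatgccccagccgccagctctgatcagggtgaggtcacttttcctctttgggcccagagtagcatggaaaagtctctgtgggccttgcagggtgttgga
GACAT3, chr2:16050177-16050426: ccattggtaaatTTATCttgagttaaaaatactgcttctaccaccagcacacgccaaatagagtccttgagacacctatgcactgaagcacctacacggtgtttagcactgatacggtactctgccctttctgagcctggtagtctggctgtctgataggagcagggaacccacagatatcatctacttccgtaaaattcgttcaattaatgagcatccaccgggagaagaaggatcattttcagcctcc
The MYCN window held 3 GC boxes and 1 E-box and had 57.2% G and C. The window of LOC124908049 held 2 E-boxes and no GC box, with 54.0% G and C, and that of GACAT3 held 1 GATAA, with 45.6%. Over 35116 RefSeq promoters, 42.6% held a GC box, 61.8% an E-box and 20.4% GATAA in a window of that length. CACGTG, the E-box form preferred by MYC proteins and held by 6.34% of promoters, had no match in any of the 3 windows. Neither had TAATTA, a homeodomain core found in 4.35% of promoters. The TATA-like run TATAAA, found in 10.7%, was not matched either. These are matches of letters and say nothing about binding.

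Counts changed abruptly at both edges. The last row before the stretch, 15928385 to 15928577, had 3 to 14 counts over the 9 libraries. The first row inside, 15936335 to 15936624, 7.758 kb further on and within MYCNOS, had 1172 to 1729. At the far end, the row 16417397 to 16421448 had 8330 to 12418 counts, and the next row, 16.171 kb beyond it, had 3 to 16. The lowest row of the stretch had 2092 counts per kb in NCA, against 232 for the highest of the 151 rows within 1 Mb of either edge. Further out on chromosome 2 the highest row had 45727, above the 18460 of the highest stretch row. The stretch's median count per kb was 97.6-fold ± 5.8 that of these flanking rows in NCA, 96.6-fold ± 3.1 in ASO2 and 102.4-fold ± 2.9 in ASO10 (SD, n = 3). The genes on either side lay outside the high counts. At the start of DDX1, an RNA helicase gene that is often amplified with MYCN, the row had 27.6 CPM per kb in NCA, that of NBAS 10.7 and that of CYRIA at most 7.99. The median over 11932 rows at starts of protein-coding genes was 12.5, and the MYCN start row had 1170 CPM per kb.

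Rows in the stretch were wide, with a median of 1182 bases (179 to 5006) against 373 over all rows. Together they covered 204.3 kb, which is 42.1% of the stretch. How much of a row's count is open chromatin and how much is background raised by the many copies was not tested. Small differences in rows near the stretch median therefore do not show stable openness. Between 660 and 53470 counts fell in a row, so counting error was small: it came to 0.021 on the log2 scale for the median row in NCA, where the SD between replicates was 0.034. In ASO2 that SD was 0.041 and in ASO10 0.031.

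Relative levels were flat along most of the stretch. In NCA, 92 rows were between 0.8 and 1.25, 21 lay lower and 17 higher. Only 6 rows exceeded 1.5, and 4 exceeded 2. These 4 were the MYCN start row and rows that begin 183, 257 and 261 kb beyond the annotated MYCN start. The rows above 1.5 also included those at 153 kb (16093487 to 16095345, relative level 1.70 ± 0.089) and at 452 kb (16392354 to 16393219, in LOC107985855, 1.97 ± 0.13).

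**Figure D1:**
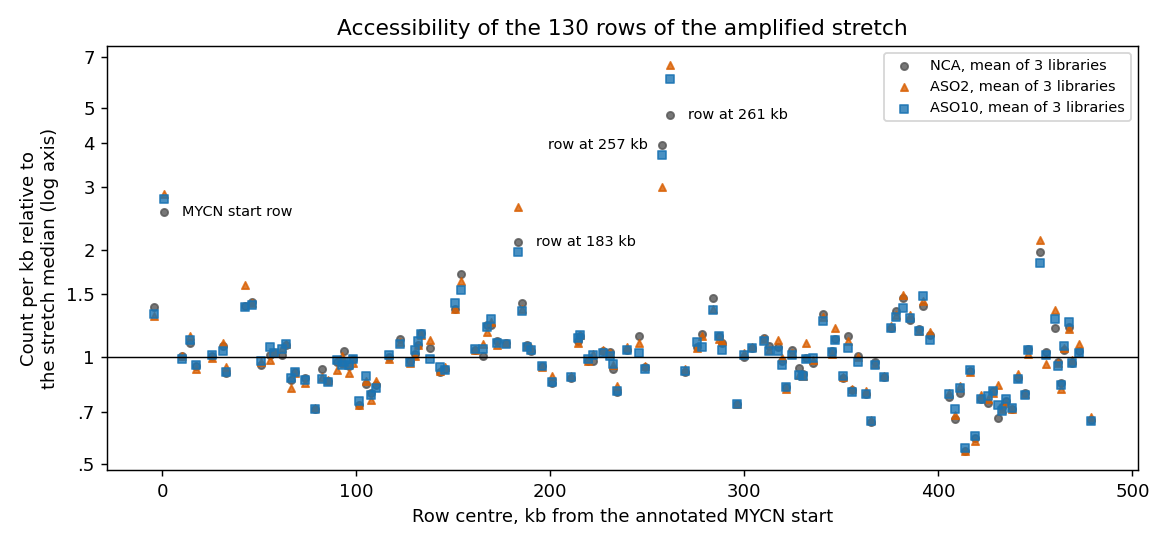
Relative level of each of the 130 rows (count per kb over the stretch median, mean of 3 libraries, log axis) against distance from the annotated MYCN start in kb. In NCA, 92 rows lie between 0.8 and 1.25, while the MYCN start row and the rows at 183, 257 and 261 kb stand above 2. Rows at 396 to 446 kb sit low in all groups.

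The highest row of all, 16201535 to 16202551, overlaps the start of LOC124908049 and part of LOC105373443, and had a relative level of 4.80 ± 0.56 in NCA (SD, n = 3). Second was 16197622 to 16199061 with 3.95 ± 0.42. It overlaps no annotated gene, and only the pseudogene LOC124900535 lies within 1 kb of it. Just 2.473 kb separate these rows. The MYCN start row, 15939584 to 15943800, followed with 2.55 ± 0.18. It covers the annotated starts of both MYCN and MYCNOS, so their openness could not be separated. After it came 16123411 to 16124613, in no annotated gene, with 2.1 ± 0.14.

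At the other end of the range, the lowest rows were 16353072 to 16355533 (0.543 ± 0.022) and 16358782 to 16360412 (0.590 ± 0.020), both overlapping LOC107985855, and 16304971 to 16306789 (0.655 ± 0.020), in no gene. Low rows clustered: from 396 to 446 kb beyond the MYCN start, 13 of 16 rows were below 0.8, and the median was 0.754 in NCA, 0.784 in ASO2 and 0.767 in ASO10. In the other 50-kb bins the NCA median lay between 0.96 and 1.14. This dip was thus present with all 3 oligonucleotides.

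The 10 rows that overlap GACAT3 had relative levels of 0.834 to 1.17 in NCA, and the row at its start, 16049053 to 16051989, had the lowest of them. In that row the NCA libraries had 0.859, 0.815 and 0.828, the ASO2 libraries 0.822, 0.881 and 0.862, and the ASO10 libraries 0.811, 0.811 and 0.821. The start of this gene was therefore no more accessible than the stretch around it in any group. Of the 23 rows over LOC107985855, the median was 0.846.

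Against NCA, 5 rows passed the test under ASO2 (edgeR quasi-likelihood, Benjamini-Hochberg adjusted p under 0.05 over 119417 tested rows). Of these, 4 rose and 1 fell relative to the stretch median, a share of 3.85% of the 130 rows, where 5.57% of all tested rows passed. Under ASO10, 1 row rose and none fell (0.769%, against 1.04%); at an unadjusted p under 0.05, 2 were higher and 2 lower. Between ASO2 and ASO10, 1 row was higher and 1 lower under ASO2 (1.54%, against 3.07%). The shares in the stretch were thus not above those of the whole table. In the stretch the median edgeR SE (0.080) exceeded the median NCA replicate SD (0.034), so small shifts there could go uncalled. With scaling to the 6 rows above 1.5 instead of the stretch median, an alternative added after seeing the data, ASO2 against NCA called 1 row higher and 3 lower. Single libraries moved these counts: without NCA replicate 1, or without NCA replicate 2, ASO2 against NCA gave 3 rows, without NCA replicate 2 ASO10 against NCA gave 0, and without ASO2 replicate 3 the direct comparison gave 4.

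For most rows the differences were small. The median absolute log2 fold change was 0.027 for ASO2, 0.023 for ASO10 and 0.030 for ASO2 against ASO10, whereas over all tested rows, most of which have far fewer counts, it was 0.35, 0.30 and 0.33. In 117, 120 and 119 of the 130 rows it stayed under 0.1. Among the 125 rows that passed in no comparison, no log2 fold change exceeded 0.215 in size. The 3 libraries of each group did not overlap in 21 rows for ASO2 against NCA (16.2%, against 20.3% of all tested rows), in 21 for ASO10 against NCA (16.2%, against 15.7%) and in 28 for ASO2 against ASO10 (21.5%, against 19.1%). These shares lie near the background. The SE from edgeR had a median of 0.080, above the replicate SD of the median row. This did not hold in every row. In the MYCN start row the replicate SD on the log2 scale was 0.10 in NCA and 0.13 in ASO2, with an SE of 0.060. The largest NCA replicate SD of any row was 0.17, that of the row at 261 kb described below. The row at 257 kb also had widely spread NCA replicates. In such rows the edgeR intervals may be too narrow and the p-values too small.

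**Figure D2:**
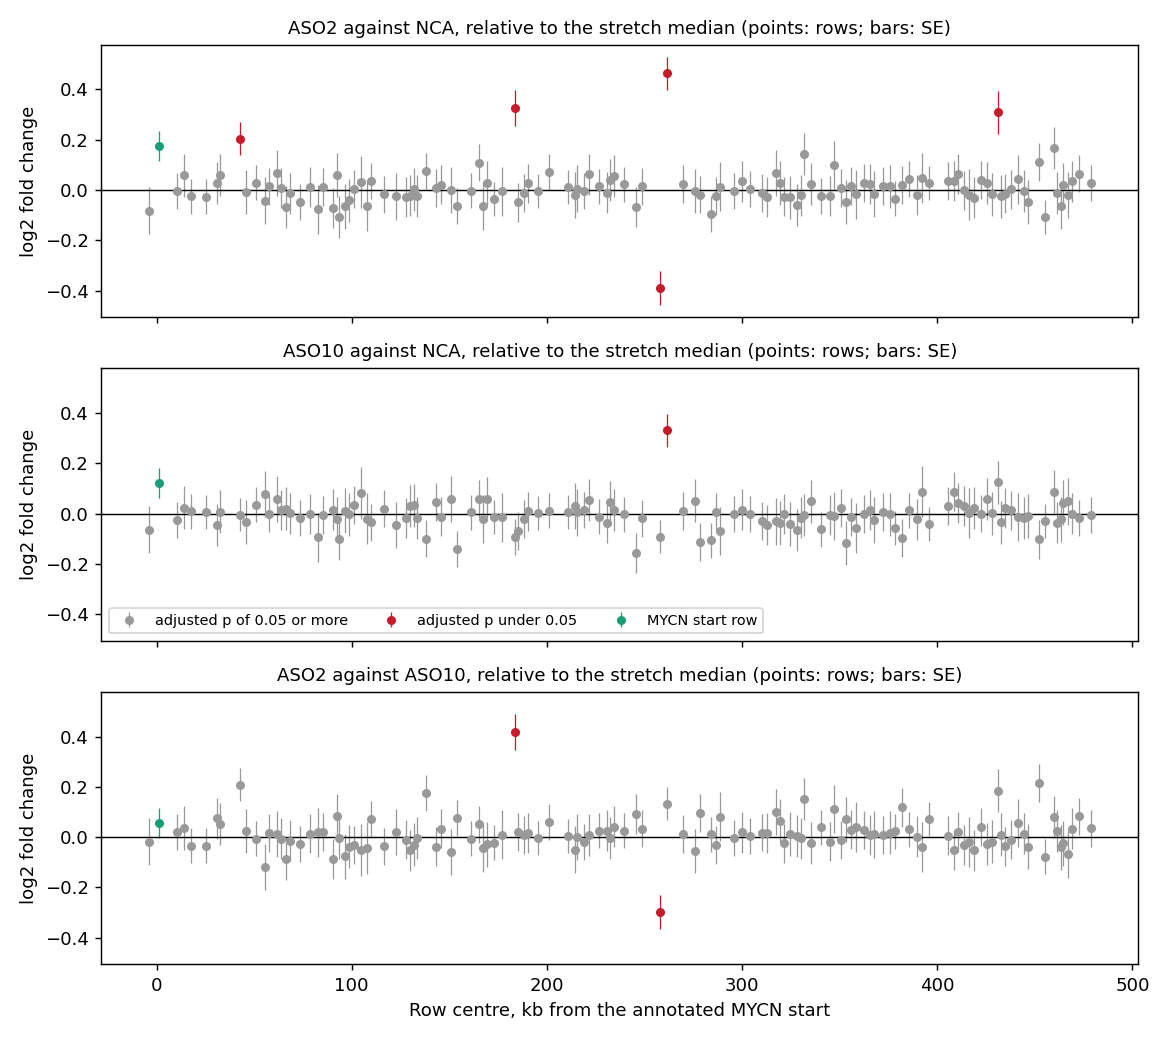
log2 fold change of the relative level of each row, with its SE, along the stretch, for ASO2 against NCA, ASO10 against NCA and ASO2 against ASO10. Red points passed an adjusted p of 0.05 (5, 1 and 2 rows), the green point is the MYCN start row, and most rows lie within 0.1 of 0.

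MYCN itself did not pass the test in any comparison. Its start row had relative levels of 2.57, 2.36 and 2.72 in the NCA libraries, 2.78, 3.19 and 2.67 in ASO2, and 2.99, 2.59 and 2.74 in ASO10. The groups overlapped, with ASO2 replicate 2 the highest of the 9 libraries and NCA replicate 2 the lowest. The log2 fold change was 0.18 ± 0.060 (SE) for ASO2 (edgeR adjusted p = 0.059; 95% interval 0.058 to 0.29), 0.12 ± 0.060 for ASO10 (adjusted p = 0.46; 0.0027 to 0.24) and 0.055 ± 0.060 for ASO2 against ASO10 (adjusted p = 0.74; -0.063 to 0.17). Scaled to the whole library instead of the stretch, the row had a log2 fold change of -0.00033 for ASO2 and 0.11 for ASO10. Leaving out NCA replicate 3 or ASO2 replicate 3 brought the ASO2 comparison past the threshold (0.22, adjusted p = 0.028, and 0.23, adjusted p = 0.0042), while without ASO2 replicate 2 the log2 fold change was 0.096 (adjusted p = 0.42).

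The row at 261 kb, the one over LOC124908049 whose upstream bases are printed above, rose under both oligonucleotides. Its relative level was 4.87, 4.21 and 5.31 in the NCA libraries, 6.31, 7.32 and 6.23 in ASO2, and 6.30, 5.60 and 6.21 in ASO10. All 6 ASO libraries lay above all 3 NCA libraries. The log2 fold change was 0.46 ± 0.065 for ASO2 (37.9% higher; edgeR adjusted p = 1.2e-09) and 0.33 ± 0.065 for ASO10 (25.8% higher; adjusted p = 0.00043). ASO2 and ASO10 share the NCA libraries in these comparisons. The NCA replicates of this row were the most widely spread of the stretch, so its SE and p-values from edgeR may be too small. Compared directly, they overlapped and differed by 0.13 ± 0.065 (adjusted p = 0.32; 95% interval 0.0045 to 0.26). The ASO10 difference was no longer past the threshold without NCA replicate 2 (log2 fold change 0.25, edgeR adjusted p = 0.064) or with DESeq2 (adjusted p = 0.060).

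Its neighbour at 257 kb went the other way under ASO2. The NCA libraries had 4.03, 3.49 and 4.32, the ASO2 libraries 2.92, 3.31 and 2.82, and the ASO10 libraries 3.89, 3.50 and 3.72. Every ASO2 library was below every NCA and every ASO10 library, while ASO10 overlapped NCA. The row fell by 23.7% under ASO2 (log2 fold change -0.39 ± 0.066; edgeR adjusted p = 1.0e-06). For ASO10 the log2 fold change was -0.092 ± 0.066 (adjusted p = 0.68), and the difference between ASO2 and ASO10 was -0.30 ± 0.066 (adjusted p = 0.0011). DESeq2 did not call the latter (adjusted p = 0.065). The NCA replicates of this row were also widely spread, so the edgeR SE and p-values may be too small.

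**Figure D3:**
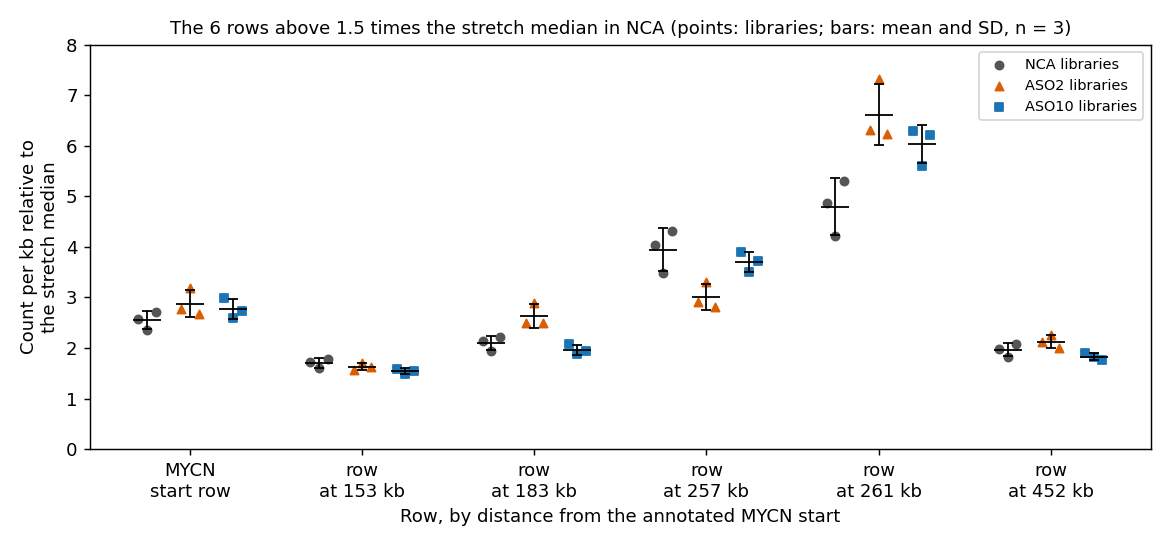
Relative level in each library for the 6 rows above 1.5 in NCA, ordered by distance from the MYCN start; bars give the mean and SD of 3 libraries. At 261 kb all ASO libraries lie above NCA, at 257 kb the ASO2 libraries lie lowest, and at 183 kb the ASO2 libraries lie highest.

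The ratio of these neighbouring rows needs no scaling between libraries, neither to the stretch nor to the library size. Both rows are among the highest of the stretch, but the ratio was formed after their values had been seen. In NCA the 261-kb row had 0.853, 0.851 and 0.869 counts for each count in the 257-kb row. The ratio was 1.53, 1.56 and 1.56 in ASO2 and 1.14, 1.13 and 1.18 in ASO10. Which of the rows had more raw counts was therefore reversed between NCA and either oligonucleotide, but the 257-kb row is the wider. Per kb, the 261-kb row was the higher in every library of all groups. The ratio in ASO10 lay between NCA and ASO2 without overlap. Group means were 0.858 ± 0.0099, 1.55 ± 0.020 and 1.15 ± 0.026 (SD, n = 3), where counting error alone was 0.923% to 1.14% per library. The two-sided exact permutation test gave p = 0.1 for each pair of groups, the smallest value that 3 against 3 allows.

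Measured against the MYCN start row per kb, the 261-kb row stood at 1.90, 1.78 and 1.95 in NCA, 2.27, 2.30 and 2.33 in ASO2, and 2.11, 2.16 and 2.27 in ASO10. The 257-kb row stood at 1.57, 1.48 and 1.59 in NCA, 1.05, 1.04 and 1.05 in ASO2, and 1.30, 1.35 and 1.36 in ASO10. In this measure too, no ASO library of either row overlapped NCA (exact permutation p = 0.1 each). The uncalled rows at 153 and 452 kb also lay below NCA without overlap. Their changes were -15.05% and -4.085% under ASO2, and -16.47% and -14.17% under ASO10. At 257 kb the change was -32.26% under ASO2 and -13.45% under ASO10, so the ASO10 fall was not particular to that row. The divisor, the MYCN start row, itself had log2 fold changes of 0.18 and 0.12.

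**Figure D4:**
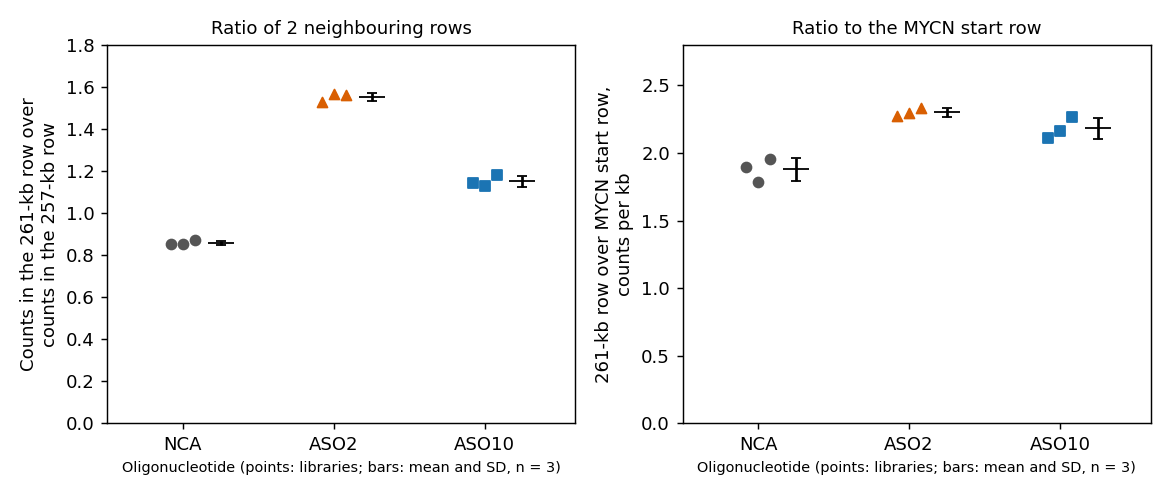
Left, counts in the row at 261 kb over counts in the row at 257 kb in each library; right, counts per kb of the row at 261 kb over those of the MYCN start row. Bars give the mean and SD of 3 libraries. The left ratio is below 1 in the 3 NCA libraries and above 1 in the 6 ASO libraries, highest in ASO2. It is of raw counts, and per kb the row at 261 kb is the higher in every library.

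The row at 183 kb, in no annotated gene, separated the oligonucleotides. Relative levels were 2.14, 1.94 and 2.21 in the NCA libraries, 2.50, 2.90 and 2.49 in ASO2, and 2.07, 1.88 and 1.95 in ASO10. ASO2 lay above both other groups, which overlapped each other. The row rose under ASO2 (log2 fold change 0.33 ± 0.072; edgeR adjusted p = 0.00041), had -0.092 ± 0.072 under ASO10 (adjusted p = 0.71), and was higher under ASO2 than under ASO10 by 0.42 ± 0.072 (adjusted p = 4.3e-06). With library scaling in place of stretch scaling the ASO2 difference from NCA was 0.15 and did not pass (adjusted p = 0.26), but that from ASO10 did (0.25, adjusted p = 0.020). Per kb over the MYCN start row it stood at 0.823 ± 0.0093 in NCA, 0.914 ± 0.017 in ASO2 and 0.711 ± 0.017 in ASO10 (SD, n = 3), with no overlap between any pair of groups (exact permutation p = 0.1 each).

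A smaller rise was called at 430 kb, in one of the low rows over LOC107985855 (16370928 to 16371986). It had 0.671, 0.649 and 0.696 in NCA, 0.810, 0.894 and 0.795 in ASO2, and 0.781, 0.693 and 0.724 in ASO10. The ASO2 libraries lay above the other groups. The log2 fold change was 0.31 ± 0.084 for ASO2 (edgeR adjusted p = 0.0080) and 0.12 ± 0.084 for ASO10 (adjusted p = 0.65). It missed the threshold without NCA replicate 1 (adjusted p = 0.055), without NCA replicate 2 (0.051) and with library scaling (log2 fold change 0.13, adjusted p = 0.45).

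The fifth call for ASO2 was the row at 41.2 kb, 15981725 to 15985260, in no annotated gene. NCA had 1.38, 1.36 and 1.41, ASO2 1.56, 1.71 and 1.52, and ASO10 1.43, 1.35 and 1.36. ASO2 was above both. The log2 fold change was 0.20 ± 0.066 (edgeR adjusted p = 0.041), and -0.0047 ± 0.066 for ASO10 (adjusted p = 0.99). This call was the least stable: leaving out any library except ASO2 replicate 3 lost it (adjusted p from 0.052 to 0.18), and with library scaling the log2 fold change was 0.027. Per kb over the MYCN start row, ASO2 and NCA overlapped (0.555 ± 0.016 and 0.545 ± 0.028, SD, n = 3; exact permutation p = 0.7).

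Over the whole stretch, the level relative to the rest of the library was lower in ASO2. The stretch took 9.72% to 10.5% of all counts in NCA, 8.45% to 9.48% in ASO2 and 9.47% to 10.2% in ASO10. The median row had 456, 489 and 435 CPM per kb in NCA, 414, 387 and 421 in ASO2, and 436, 477 and 456 in ASO10. By this median all ASO2 libraries lay below all others, whereas in share of counts ASO2 and ASO10 overlapped (exact permutation p = 0.2). On the log2 scale ASO2 differed from NCA by -0.17 (a change of -11.4%; exact permutation p = 0.1, the smallest possible) and ASO10 by -0.012 (p = 0.9), and ASO2 differed from ASO10 by -0.16 (p = 0.1). The difference depended on the reference. Against chromosome 2 outside the stretch (9546 rows), the stretch median was 83.7-fold ± 3.2 in NCA, 70.6-fold ± 1.9 in ASO2 and 84.7-fold ± 2.9 in ASO10 (SD, n = 3), whereas the ratios to the flanking rows given above were nearly alike in NCA and ASO2. Across the 90 rows outside the stretch with a mean above 8 log2 CPM, the median log2 fold change was -0.081 for ASO2 and 0.037 for ASO10. With library scaling, in which this shift of -0.17 stays in every row, ASO2 against NCA called 1 stretch row higher and 10 lower, where stretch scaling gave 4 and 1.

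The contrast between high and ordinary rows also differed among libraries of 1 group. The mean relative level of the 6 rows above 1.5 was 2.89, 2.57 and 3.07 in the NCA libraries, 3.03, 3.44 and 2.97 in ASO2, and 3.13, 2.81 and 2.99 in ASO10. In each group, replicate 2 stood apart from the other two: lowest in NCA and ASO10 and highest in ASO2. The same libraries had the highest stretch level in NCA and ASO10 and the lowest in ASO2. The ratios within a library above do not use the stretch median. With scaling to these 6 rows, the ASO2 differences from NCA at 261 kb (log2 fold change 0.33, edgeR adjusted p = 0.00034) and 257 kb (-0.53, adjusted p = 4.8e-10) passed. Those at 183 kb (0.19, adjusted p = 0.16), 430 kb (0.17, adjusted p = 0.31) and 41.2 kb (0.064, adjusted p = 0.73) did not. The rows at 183, 257 and 261 kb are among the 6 and so help set their own reference. This scaling is therefore no independent check of them.

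**Figure D5:**
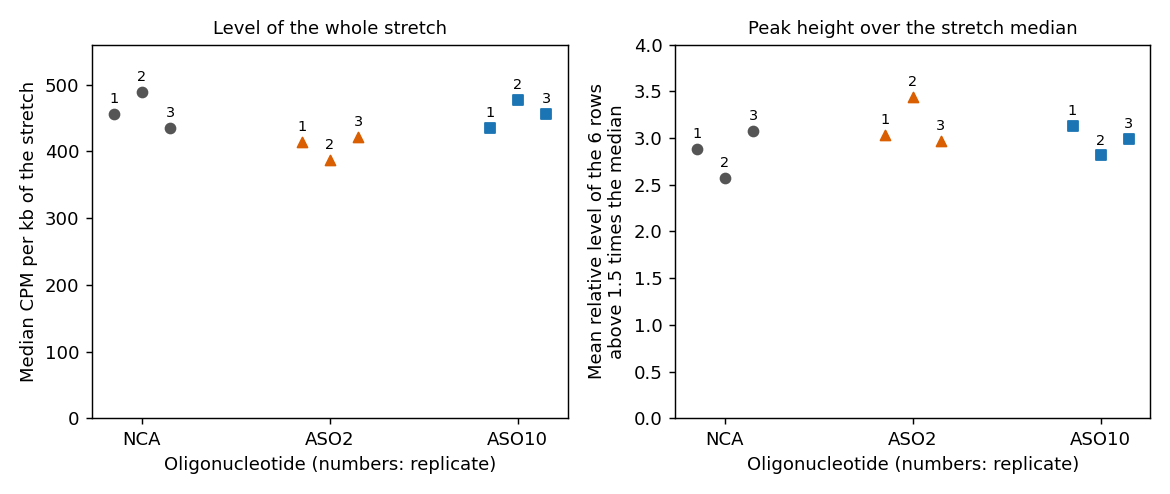
Left, median CPM per kb of the 130 rows in each library; right, mean relative level of the 6 rows above 1.5 in NCA. Numbers mark replicates. The ASO2 libraries are lowest on the left, and replicate 2 is the extreme of its group in both panels.

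Rows whose pattern over the 9 libraries was most like that of the MYCN start row were found by Pearson r of the log2 relative level, as a description. Nearest was the 261-kb row (r = 0.89), then the 430-kb row (0.87) and rows at 384 kb (0.81), 164 kb (0.79) and 460 kb (0.76). All share the stretch median of their library as divisor. Among 11673 rows at protein-coding gene starts outside the stretch, in log2 CPM, those of TEDC1 (0.98), SEPTIN7 (0.98), GSE1 (0.97), FARP2 (0.97) and USP12 (0.97) came closest. They are the highest of 11673 values of r, each over only 9 libraries. What such rows share with the MYCN start row was not tested.

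Genes that work with MYCN were examined in lists, whose counts are of rows within 1 kb of a listed gene. The MYC network (MAX, its MXD and MGA partners and the other MYC genes) had 17 rows, none called in any comparison. Median log2 fold changes were -0.066 for ASO2, 0.18 for ASO10 and -0.26 for ASO2 against ASO10. The row at the start of MAX, the obligate partner, had 49.0 ± 4.4 CPM in NCA, 46.7 ± 10.9 in ASO2 and 52.1 ± 0.67 in ASO10 (SD, n = 3). Over all 11673 gene-start rows the medians were -0.039, 0.10 and -0.15, so the list leaned the same way as gene starts in general.

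Of 14 rows at MYC target genes, none was called under ASO2 and 1 was higher under ASO10, where 1.94% of gene-start rows were higher. That row belongs to PTMA, the prothymosin alpha gene: 75.0 ± 1.6 CPM in NCA, 97.4 ± 7.1 in ASO10 (log2 fold change 0.38 ± 0.11, edgeR adjusted p = 0.044). Between ASO2 and ASO10, 5 of the 14 were lower under ASO2 and none higher, where 2.78% of gene-start rows were lower. They were NCL (nucleolin), FBL (fibrillarin, an enzyme of ribosomal RNA modification), CDK4 (a cell cycle kinase), PTMA, and ODC1 (the first enzyme of polyamine synthesis). The largest difference was that of FBL, -0.58 ± 0.18 (adjusted p = 0.036), and the smallest that of PTMA, -0.40 ± 0.11 (adjusted p = 0.012). ODC1 had 28.6 ± 2.1 CPM in NCA, 28.2 ± 5.4 in ASO2 and 37.9 ± 3.8 in ASO10, with -0.43 ± 0.13 between ASO2 and ASO10 (adjusted p = 0.035). The median over the 14 rows was -0.13 for ASO2, 0.16 for ASO10 and -0.39 between them.

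ODC1 was also the only call among 11 rows of genes neighbouring MYCN on the chromosome arm, where NBAS and DDX1 passed in no comparison. That is 1 row lower between ASO2 and ASO10, where 2.78% of all gene-start rows were lower, and the same share is the background for the lists that follow. DDX1 had 28.9 ± 2.1 CPM in NCA and 23.3 ± 1.4 in ASO2 (log2 fold change -0.31 ± 0.14, edgeR adjusted p = 0.20). Among 10 rows of genes that set MYCN protein stability, 1 of the pair at HUWE1, a ubiquitin ligase, was lower in ASO2 than in ASO10 (-0.63 ± 0.16, adjusted p = 0.0059). Among 17 rows of adrenergic core factors, 1 of the pair at GATA2 was lower in ASO2 than in ASO10 (-0.45 ± 0.13, adjusted p = 0.020), and HAND2 and ISL1 were not called. No row of these 3 lists was called against NCA under either oligonucleotide.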

How the data were processed

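The data were whole-number ATAC-seq counts per region in 9 libraries, which share the same regions, as deposited by the authors without normalization, per the file's values. The submitters' processing notes name FastQC, Bowtie2 2.2.6, SAMtools, MACS2 2.1.2 and DESeq2 1.42.0 and the build GRCh38, without saying what each did. Duplicate removal, filters on copy-number or repeat regions, the shift of Tn5 cut sites and whether reads, pairs or cuts were counted are not given in the sources used here. Per the labels' protocols, genomic DNA was extracted and tagmented with Tn5, and sequencing was paired-end. Region positions are printed as the region names give them.

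Counts were fitted in R 4.3.3 with edgeR 4.0.16 (filterByExpr by group, TMM, robust quasi-likelihood test, all 9 libraries, group as the sole term, common biological coefficient of variation 23.57%), with Benjamini-Hochberg adjustment over all 119417 tested regions and a threshold of 0.05. Rows of the stretch were offset by their library's median count per kb in the stretch. Levels of the whole stretch, 1 value per library, used TMM-scaled CPM and two-sided exact permutation tests. The fit was tested on simulated data. There all stretch rows had the same small dispersion. False calls in rows with a wider replicate spread, such as the MYCN start row and those at 257 and 261 kb, were thus not checked. Alternatives included DESeq2 1.42.0, limma 3.58.1 (voom), other scalings and filters, a replicate block and leaving out each library.

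The stretch and the gene lists were chosen with earlier results of these data known. Named rows are those at annotated genes, those called (at most 6 per direction), the 3 highest and 3 lowest in NCA, the edges and nearest rows outside, and the 5 most like the MYCN start row inside the stretch and at gene starts outside; from the lists, called rows (at most 4 per list and comparison) and MAX, DDX1, NBAS and ODC1. The rows at 153 and 452 kb, and the list members HAND2, ISL1 and the fifth MYC target, are named beyond this rule, after their values were seen. Gene positions and upstream bases are from RefSeq (GRCh38.p14), without exon structure. Replicate numbers were not taken to pair the libraries (see the closing section). Tables and figures used Python 3.11.15, pandas 2.3.3, scipy 1.17.1 and matplotlib 3.10.9.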

Additional observations from a re-analysis of the deposited data

Results flagged for a closer look

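At 183 kb from the MYCN start, the row 16123411 to 16124613 responded differently to the oligonucleotides: the log2 change under ASO2 minus that under ASO10 was 0.42 (edgeR adjusted p = 4.3e-06), with ASO2 above in all 3 libraries. The row 16197622 to 16199061, at 257 kb, also differed, by -0.30 (edgeR adjusted p = 0.0011), with the 3 ASO2 libraries below the 3 of ASO10. DESeq2 did not call the second difference (adjusted p = 0.065).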

How the results depend on the processing

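Of 325 pairs of a result and an alternative, covering 20 results, 275 kept their direction and their side of the threshold (for counts, stayed within 1.5 times). This count overstates stability. The exact test of the stretch level cannot go below 0.1, so those results could change only in direction. Some alternatives, such as leaving out a library of the group not compared, leave a row's estimate as it was. When rows also had to change by more than 0.5 on the log2 scale, 0 were called in each comparison. For ASO2 against NCA, the 5 called rows became 11 (1 higher, 10 lower) without the stretch offset, 14 with limma-voom and 3 to 6 when single libraries were left out. For ASO10 against NCA, the 1 row became 0 with DESeq2, 9 with limma-voom and 0 to 1 with a library left out. For ASO2 against ASO10, the 2 rows became 4 with at least 10 counts in every library, 4 with DESeq2 (4 higher, 0 lower), 15 with limma-voom and 2 to 4 with a library left out.

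The MYCN start row under ASO2 had a log2 fold change of -0.00033 without the stretch offset, 0.18 with at least 10 counts in every library (edgeR adjusted p = 0.0098, fewer rows tested), 0.16 with limma-voom and 0.096 to 0.23 with a library left out. Under ASO10 it was 0.11 with limma-voom and 0.064 to 0.17 with a library left out. Between ASO2 and ASO10 it was -0.11 without the stretch offset, -0.066 with scaling to the 6 rows above 1.5 (chosen after seeing the data), 0.044 with limma-voom and -0.024 to 0.11 with a library left out, lowest without ASO2 replicate 2. The cause of these changes was not tested. For limma-voom, the modelled SD of the MYCN start row was 0.0075 on the log2 scale, where its NCA replicates had 0.10, so its calls at these counts are not used.

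The stretch level of ASO10 against NCA changed sign without ASO10 replicate 1 (0.020) and without NCA replicate 2 (0.033), over a range of -0.052 to 0.033. Rows of listed genes called for ASO2 numbered 0 within 1 kb and 2 within 10 kb.

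The replicate block rested on numbers that the labels do not tie to shared cultures, and the deviations of same-numbered libraries correlated by -0.033 to 0.011 over all rows and by -0.45 to 0.22 over the stretch rows, across rows. With the block, ASO2 against NCA called 4 stretch rows (3 higher, 1 lower), losing the 41.2-kb row (adjusted p = 0.11), and the other comparisons called 1 and 2. With 3 libraries a group, no exact test over libraries could go below 0.1.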
